A study of Mus musculus with 24 samples.

Results

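Immediate early genes are switched on within minutes of a stimulus by transcription factors that the cell already holds, so their transcription needs no new protein. Serum response factor, which binds the CArG box, and CREB, which binds the cyclic AMP response element built on the letters TGACG, are the best known of these factors, and MAP kinases act on both routes. In microglia, the resident macrophages of the brain, the genes follow injury, inflammatory signals and handling of the tissue, and warm enzymatic dissociation is known to raise them. The 10 genes described here were taken by name from the table of 55487 gene identifiers. Fos, Fosb, Jun and Junb encode subunits of the AP-1 transcription factor, Egr1, Egr2 and Egr3 encode zinc-finger transcription factors, Ier2 encodes a small nuclear regulator, Atf3 encodes a stress-induced transcription factor related to Fos and Jun, and Dusp1 encodes a phosphatase that shuts off p38 and JNK MAP kinases. All 10 passed the filter on low counts that left 17139 genes for testing.

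Bulk RNA-seq had been made from CD11b-positive cells of the brains of male mice aged 8 to 10 weeks. Offspring of dams with maternal immune activation (MIA) and offspring of control dams were used, with frontal cortex and striatum libraries of both. Each mouse had received an intraperitoneal injection of lipopolysaccharide (LPS, 4500 endotoxin units per g) or of saline 18 h before collection, so the values describe a late time after LPS and not the first minutes. The 8 groups were thus MIA or control, striatum or cortex, and LPS or saline, with 3 libraries each. Per the labels, every group shared the perfusion with PBS, the removal of the meninges, the papain and DNase treatment at body temperature, the removal of debris and the capture on anti-CD11b magnetic beads, so no library shows the genes without dissociation, and the part of dissociation in the results was not tested. The labels used here name neither the agent given to the dams nor the litters, and MIA cannot be told apart from litter. They do not say whether replicates were separate animals, or whether the replicate numbers 1, 2 and 3 mark a litter, a day or a batch, so p-values measure the spread between these libraries. Whether a cortex and a striatum library came from the same mouse is not given either. Tests averaged over the regions and tests of the replicate numbers treated all libraries as independent, so a mouse may have been counted more than once there.

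MIA striatum LPS replicate 3 is marked as excluded in its title; it is shown apart and enters no test unless stated. The other 23 libraries held 19453295 to 29480499 counts, and 1.929% to 4.374% of counts were mitochondrial. Microglial markers were high in every library, with Cx3cr1 at 4480 to 8923, Tmem119 at 1861 to 5986 and P2ry12 at 834.4 to 5757 CPM (counts scaled to a common library total, with TMM factors). In such bulk samples, fewer cells of a type and less RNA per cell cannot be told apart. Levels are in CPM, and a gene was called when edgeR's quasi-likelihood test, adjusted over all 17139 genes by the Benjamini-Hochberg method, gave a p under 0.05.

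The promoters of 5 of the genes called below for LPS or for replicate number are shown. Each is the 250 bases before the RefSeq transcription start on GRCm38.p6, 5′ to 3′ along the gene, and capitals mark matches to the motifs searched.
Fos promoter, chr12:85473640-85473889, plus strand: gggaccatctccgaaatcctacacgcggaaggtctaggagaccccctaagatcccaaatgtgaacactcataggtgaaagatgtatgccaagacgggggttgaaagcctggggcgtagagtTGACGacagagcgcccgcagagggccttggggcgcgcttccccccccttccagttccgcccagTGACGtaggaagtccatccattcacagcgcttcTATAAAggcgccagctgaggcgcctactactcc
Jun promoter, chr4:95052223-95052472, minus strand: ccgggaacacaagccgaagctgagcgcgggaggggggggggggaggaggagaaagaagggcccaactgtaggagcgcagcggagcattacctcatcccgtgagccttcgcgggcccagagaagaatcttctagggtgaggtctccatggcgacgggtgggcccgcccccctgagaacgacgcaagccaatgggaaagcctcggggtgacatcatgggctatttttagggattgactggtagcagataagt
Egr2 promoter, chr10:67537619-67537868, plus strand: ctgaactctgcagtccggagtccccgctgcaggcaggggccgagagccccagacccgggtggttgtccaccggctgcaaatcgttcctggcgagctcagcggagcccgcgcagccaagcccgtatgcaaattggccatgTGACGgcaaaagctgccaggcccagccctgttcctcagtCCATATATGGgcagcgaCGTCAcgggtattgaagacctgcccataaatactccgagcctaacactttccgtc
Atf3 promoter, chr1:191183334-191183583, minus strand: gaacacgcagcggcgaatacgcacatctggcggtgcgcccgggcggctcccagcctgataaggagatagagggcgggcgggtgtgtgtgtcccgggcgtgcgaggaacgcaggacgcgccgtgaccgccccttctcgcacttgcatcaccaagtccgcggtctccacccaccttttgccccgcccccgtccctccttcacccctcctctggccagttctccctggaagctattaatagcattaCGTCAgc
Dusp1 promoter, chr17:26508473-26508722, minus strand: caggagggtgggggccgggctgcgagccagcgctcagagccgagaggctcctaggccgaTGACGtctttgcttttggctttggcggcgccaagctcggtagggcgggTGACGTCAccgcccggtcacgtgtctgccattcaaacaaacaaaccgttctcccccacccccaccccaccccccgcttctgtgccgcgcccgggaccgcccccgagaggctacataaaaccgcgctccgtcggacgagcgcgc
RefSeq promoter windows were read for 7 of the 10 genes, the 5 above with Fosb and Junb, which were also called below but are not printed. Motifs were searched on both strands: TGACG, its palindrome TGACGTCA (which holds TGACG on each strand), the CArG box, TATAAA and the AP-1 motif TGANTCA, in which N is any base. Of the 7 windows 6 held TGACG, all but that of Jun, against 17.8% of all 32851 promoter windows of the same length. TGACGTCA stood only in the Dusp1 window of the 7 (1.55% of all windows), where it starts 143 bases before the start site and overlaps the TGACG counted there. The CArG box stood only in the Egr2 window, 72 bases before the start site (1.47% of all windows). TATAAA stood only in the Fos window, 33 bases before the start site (12.4% of all windows). TGANTCA was in none of the 7 (6.75% of all windows). A match is a run of letters and not a measured binding site. Bases further upstream were not read, so a motif absent here may lie outside the 250 bases. Sites that differ by a letter from those searched were not counted. No window was read for Egr1, Egr3 or Ier2.

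Immediate early transcripts were abundant in these cells. Per kilobase of exon, Fos was the highest of the 10, with a mean of 1687 CPM per kb (SD 494, n = 23). Dusp1 (805), Junb (794.2), Jun (681.1), Atf3 (623.5), Egr1 (581.7) and Ier2 (492.1 CPM per kb) followed, and within this run each mean lay within 1 SD of the next. Egr2 (42.46), Fosb (41.99) and Egr3 (2.88 CPM per kb) were far lower. Among all 55487 gene identifiers by mean CPM, which is not per length, Fos ranked 22 and Dusp1 42, whereas Egr3 ranked 7622. Together the 10 genes made up 0.845% to 2.21% of scaled counts in the 23 libraries, lowest in MIA cortex LPS replicate 3 and highest in MIA cortex saline replicate 2.

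**Figure D1:**
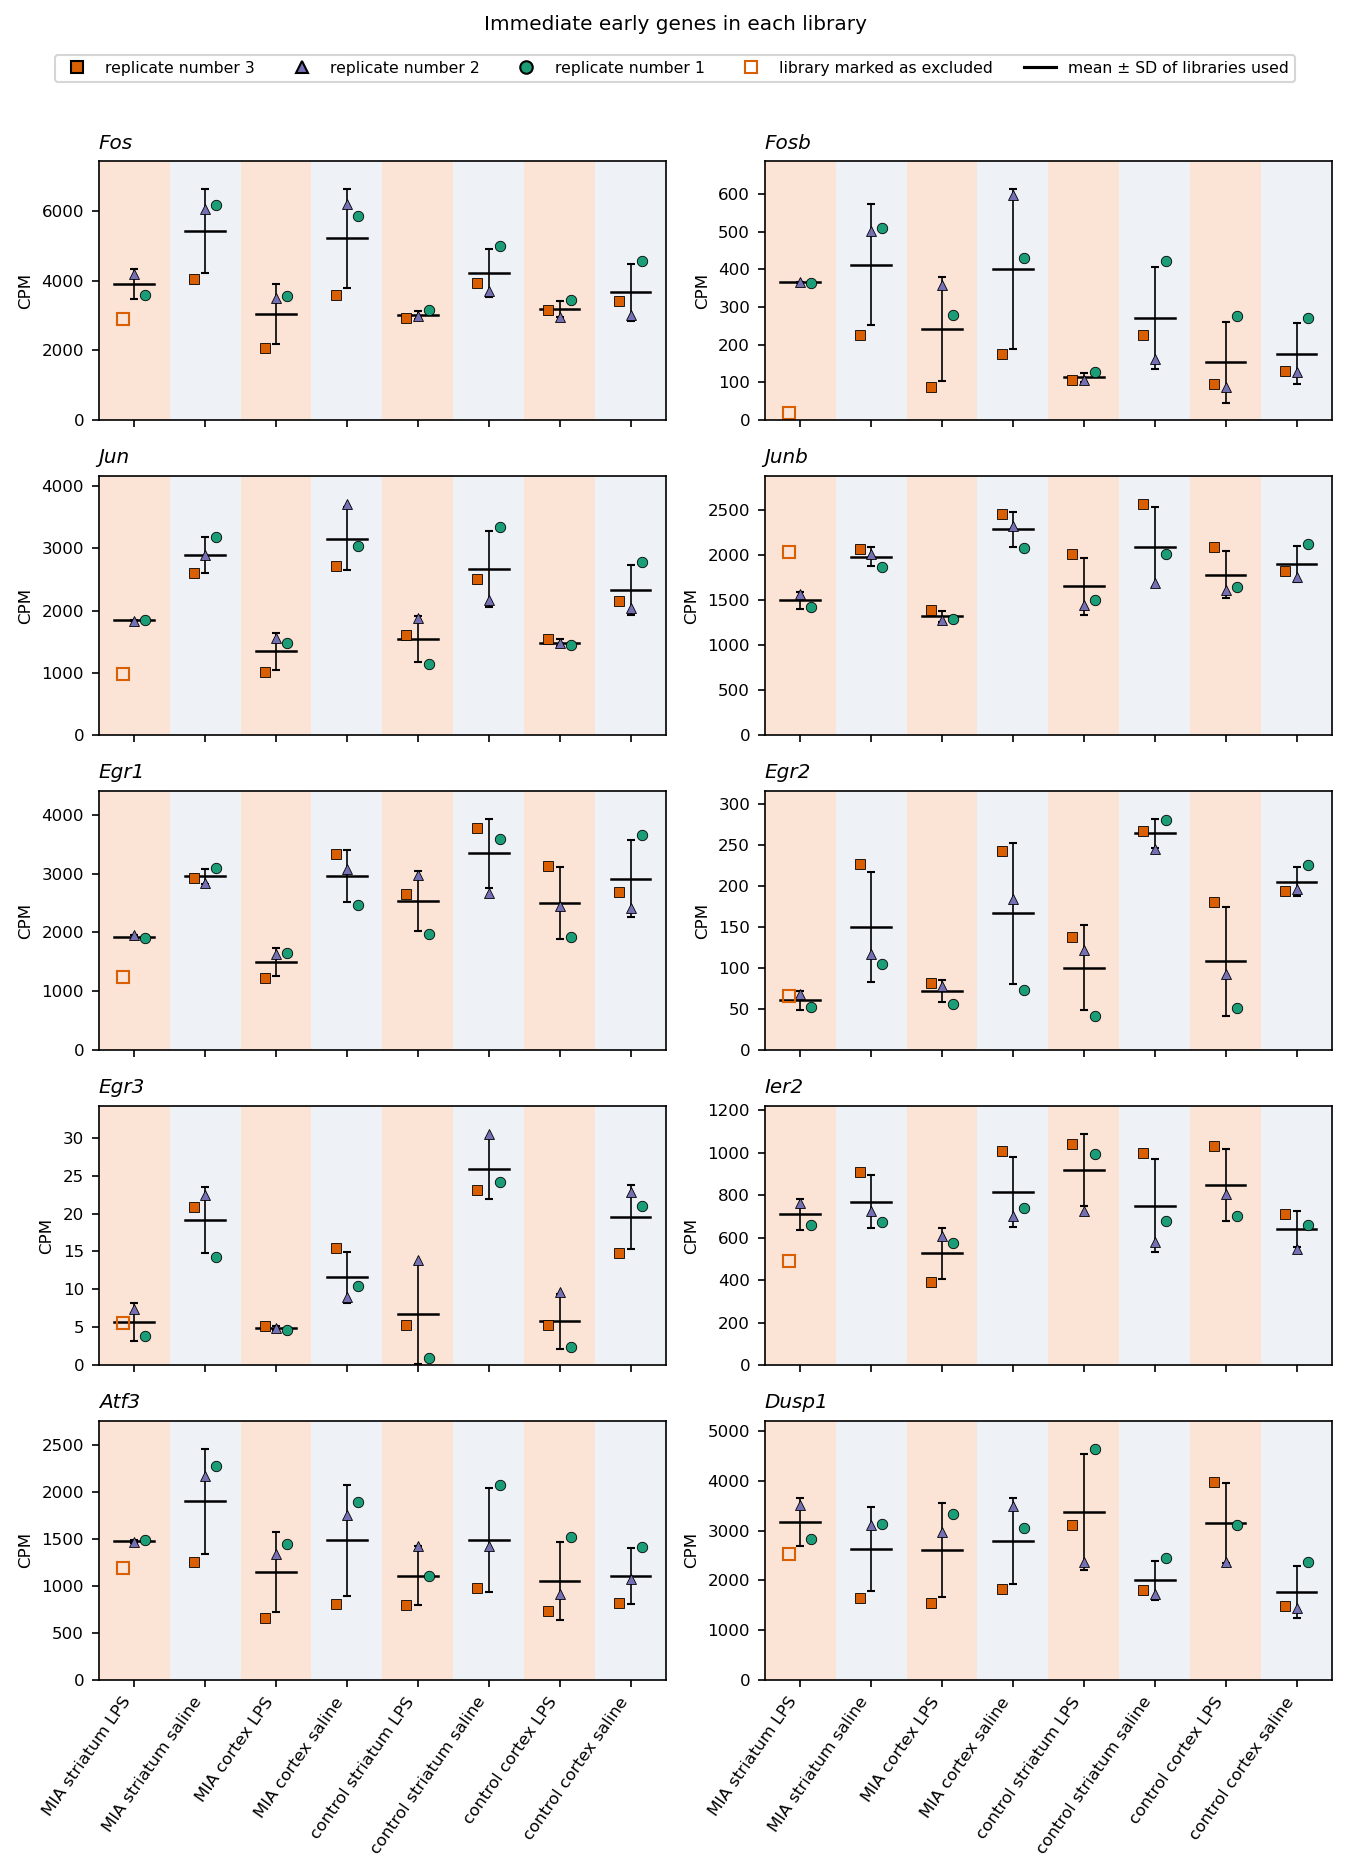
CPM of the 10 genes (y axes, from 0) in each of the 8 groups (x axis; LPS shaded orange, saline grey); symbols are libraries by replicate number, bars are mean ± SD of the libraries used, and the open square is the MIA striatum LPS library marked as excluded. Jun sits between 1006 and 1875 CPM in the 11 LPS libraries used, all below the saline libraries, while Ier2 and Atf3 overlap widely.

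For each gene the 8 groups can be ordered by mean level. The 4 saline groups were the 4 highest for Jun, Junb, Egr1, Egr2 and Egr3, and 3 of the 4 highest for Fos, Fosb and Atf3. Ier2 and Dusp1 had their highest mean in control striatum LPS (920.6 ± 169 CPM and 3376 ± 1160 CPM, SD, n = 3). Most neighbours in these orders did not separate: for Fos, Fosb, Ier2 and Dusp1 the libraries of all 7 pairs of neighbouring groups overlapped, and for the other 6 genes those of 6 of the 7 pairs did. The gap for Jun lay between control cortex saline, the lowest saline group, and MIA striatum LPS, the highest LPS group.

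The first question was what LPS did 18 h after injection. Jun, Egr1, Egr2, Egr3, Fos and Junb fell after LPS when the effect was averaged over the 4 prenatal and regional groups, Dusp1 rose, and Fosb, Ier2 and Atf3 were not called. That made 7 of 10 genes called, against 37.6% of all tested genes, with 6 of 10 lower against 16.9% and 1 of 10 higher against 20.7%. The median log2 fold change of the 10 was -0.52, and that of all tested genes was -0.04.

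Jun, the main partner of Fos in AP-1, gave the widest separation. It had 1006, 1541 and 1875 CPM as the lowest, median and highest of 11 LPS libraries, against 2037, 2749 and 3719 CPM in 12 saline libraries. All 11 LPS libraries were below every saline library. The averaged fold change was -0.83 ± 0.10 on the log2 scale (SE, edgeR adjusted p = 1.8e-06). Junb, an AP-1 subunit with weaker activating capacity than Jun, had a lowest, median and highest of 1282, 1500 and 2089 CPM in LPS libraries, against 1691, 2042 and 2571 CPM in saline libraries. Its treatment ranges overlapped, with 9 of 11 LPS libraries below every saline library, and the averaged log2 fold change was -0.41 ± 0.08 (edgeR adjusted p = 0.00044).

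Fos fell less than Jun on the log2 scale. Its lowest, median and highest levels were 2063, 3162 and 4207 CPM after LPS, against 3007, 4314 and 6225 CPM after saline. Only 4 of 11 LPS libraries lay below every saline library, and the averaged log2 fold change was -0.48 ± 0.12 (edgeR adjusted p = 0.0026). Fosb, the close relative of Fos, had 87.23, 128.0 and 366.5 CPM after LPS as lowest, median and highest, against 126.7, 248.7 and 598.2 CPM after saline. The libraries of the treatments overlapped and its averaged log2 fold change of -0.59 ± 0.27 was not called (edgeR adjusted p = 0.097), though it was with no filter on low counts (-0.60, adjusted p = 0.027). Fosb was also called with the replicate numbers added to the model as a block (-0.65, edgeR adjusted p = 0.015).

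The 3 EGR genes, which bind GC-rich sites in target promoters, were called lower. Egr1 had 1225, 1952 and 3131 CPM after LPS as lowest, median and highest, against 2412, 3006 and 3777 CPM after saline, and a log2 fold change of -0.56 ± 0.11 (edgeR adjusted p = 0.00024). Egr2 had 41.29, 77.44 and 180.5 CPM after LPS, against 73.01, 210.7 and 280.6 CPM after saline. Its log2 fold change was -1.21 ± 0.23 (edgeR adjusted p = 0.00031), and 5 of 11 LPS libraries were below every saline library. Egr3 had the largest fold change of the 10 genes and the lowest levels. It had 0.9248, 5.195 and 13.88 CPM after LPS, against 8.988, 20.9 and 30.56 CPM after saline, with a log2 fold change of -1.68 ± 0.30 (edgeR adjusted p = 0.00013).

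Dusp1, the phosphatase, was called higher. Its lowest, median and highest were 1538, 3117 and 4646 CPM after LPS, against 1448, 2096 and 3496 CPM after saline. The treatments overlapped, and 3 of 11 LPS libraries were above every saline library. The averaged log2 fold change of 0.44 ± 0.17 passed the threshold narrowly (edgeR adjusted p = 0.044), and the call was lost under 16 of 31 alternatives, with values of 0.31 to 0.51. Atf3 (-0.31 ± 0.19, edgeR adjusted p = 0.23) and Ier2 (-0.01 ± 0.11, adjusted p = 0.96) were not called. With all libraries numbered 3 left out, an alternative added after seeing the data, Atf3 was called (-0.37, edgeR adjusted p = 0.026). Atf3 was also called with the replicate numbers as a block (-0.36, edgeR adjusted p = 0.0029).

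**Figure D2:**
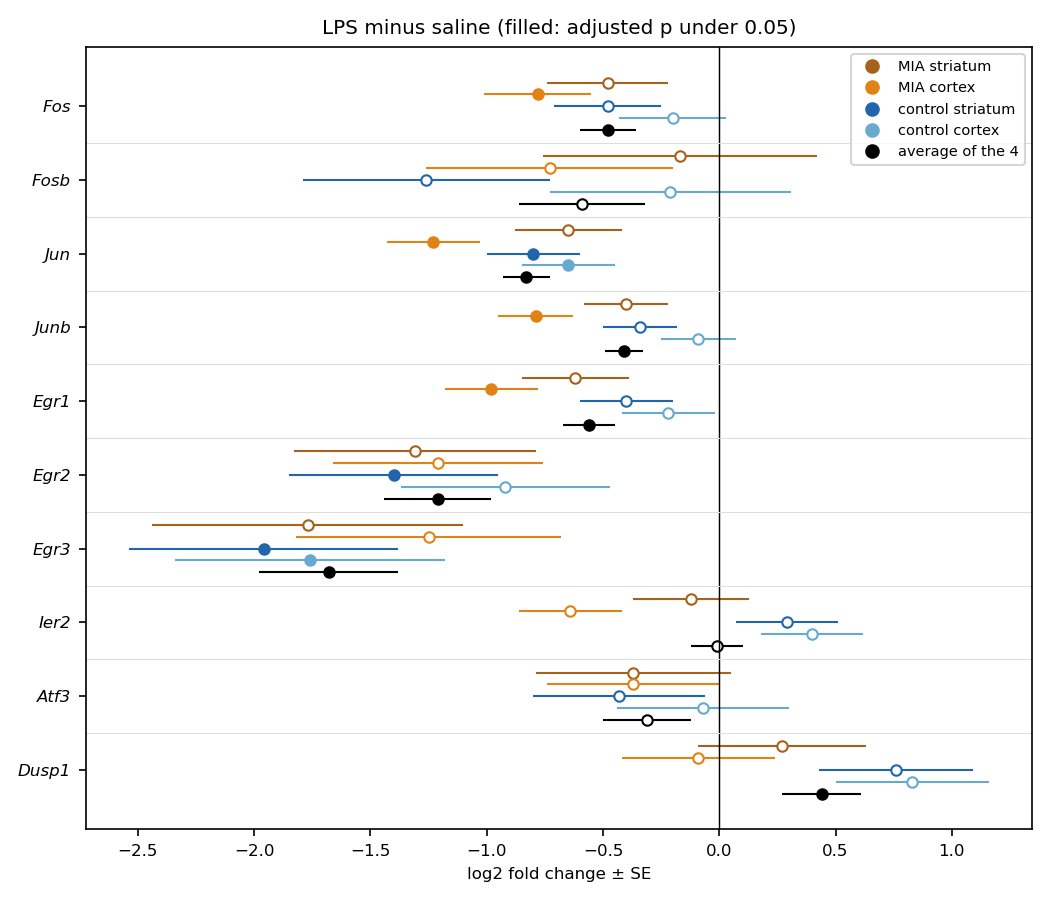
Log2 fold change ± SE of LPS minus saline (x axis) for each gene (rows) in MIA striatum, MIA cortex, control striatum, control cortex and their average; filled points had an adjusted p under 0.05. Jun lies below 0 in every group, with values of -0.65 to -1.23, and Dusp1 and Ier2 straddle 0 between groups.

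In MIA cortex, 4 of 10 genes were called, all lower (Fos, Jun, Junb and Egr1), against 11.9% of all genes tested. Jun had 1474, 1559 and 1006 CPM in MIA cortex LPS, against 3046, 3719 and 2713 CPM in MIA cortex saline, and fell by 1.23 on the log2 scale (SE 0.20, edgeR adjusted p = 0.00031). Junb had 1284, 1282 and 1390 CPM in MIA cortex LPS, against 2079, 2322 and 2455 CPM in MIA cortex saline (log2 -0.79 ± 0.16, edgeR adjusted p = 0.0018). Both genes separated fully between treatments. Egr1 had 1650, 1630 and 1225 CPM in MIA cortex LPS, against 2462, 3085 and 3335 CPM in MIA cortex saline (log2 -0.98 ± 0.20, edgeR adjusted p = 0.0026). Fos had 3579, 3503 and 2063 CPM in MIA cortex LPS, against 5863, 6225 and 3589 CPM in MIA cortex saline (log2 -0.78 ± 0.23, edgeR adjusted p = 0.031). The highest LPS library of Fos was just under the lowest saline library. Without MIA cortex LPS replicate 3, which had the lowest sum of the 10 genes (8445 CPM) and the highest neuronal marker sum (1021 CPM over 15 genes, where saline libraries had 78.72 to 398.1 CPM), the Fos value was -0.57 (edgeR adjusted p = 0.10), and Fos also lost its call without MIA cortex saline replicate 1 (adjusted p = 0.072) or 2 (adjusted p = 0.12). The part of neuronal RNA in these values was not tested. In all, 6 of 10 genes did not overlap between treatments, against 26.8% of all genes, among them Egr3 and Ier2, which were not called. DESeq2 called 6 of 10, against 15.7% of all genes, adding Ier2 (-0.66, adjusted p = 0.033) and Egr2 (-1.23, adjusted p = 0.036) to the 4. With the replicate numbers as a block over all 8 groups, edgeR also called Egr2 (-1.11, adjusted p = 0.035), as it did with no filter on low counts (adjusted p = 0.024). The Egr1 call was lost with all libraries numbered 3 left out (-0.75, edgeR adjusted p = 0.067).

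Control striatum had 3 of 10 genes called, all lower (Jun, Egr2 and Egr3), against 20.9% of all genes in either direction, a count not far above that share. Egr2 had 41.29, 121.5 and 138.0 CPM in control striatum LPS, against 280.6, 245.0 and 266.6 CPM in control striatum saline (log2 -1.40 ± 0.45, edgeR adjusted p = 0.033). Egr3 had 0.9248, 13.88 and 5.318 CPM in control striatum LPS, against 24.12, 30.56 and 23.12 CPM in control striatum saline (log2 -1.96 ± 0.58, edgeR adjusted p = 0.019). Both were lower in all 3 LPS libraries, and 5 of 10 genes did not overlap between treatments, against 34.9% of all genes. Replicate 1 of the LPS group was the lowest of all 23 libraries for both. Jun fell by 0.80 on the log2 scale there (SE 0.20, edgeR adjusted p = 0.0073). Without control striatum LPS replicate 1, Egr2 was at -1.03 (edgeR adjusted p = 0.13), and its call was also lost when any of the 3 saline replicates was left out (adjusted p = 0.058 to 0.079). The Egr3 call was lost without LPS replicate 3 (edgeR adjusted p = 0.072) or saline replicate 2 (adjusted p = 0.059), and that of Jun without saline replicate 1 (adjusted p = 0.061).

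Control cortex had 2 of 10 genes called, both lower, against 18.2% of all genes called in either direction, so 2 of 10 is near the background. Jun had 1445, 1473 and 1541 CPM in control cortex LPS, against 2785, 2037 and 2160 CPM in control cortex saline (log2 -0.65 ± 0.20, edgeR adjusted p = 0.029). Egr3 had 2.325, 9.642 and 5.318 CPM in control cortex LPS, against 20.99, 22.87 and 14.74 CPM in control cortex saline (log2 -1.76 ± 0.58, edgeR adjusted p = 0.038). The groups did not overlap for either gene or for Egr2, 3 of 10 against 33.5% of all genes, which is also near the background. Both calls depended on single libraries: each was lost without LPS replicate 1 or 3 or saline replicate 1, Jun also without LPS replicate 2 and Egr3 also without saline replicate 2 (edgeR adjusted p = 0.051 to 0.16). Dusp1 had 3117, 2369 and 3968 CPM in control cortex LPS, against 2374, 1448 and 1480 CPM in control cortex saline, and was not called (log2 0.83 ± 0.33, edgeR adjusted p = 0.088).

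In MIA striatum, with 2 LPS libraries, 0 of 10 genes were called by edgeR against 10.2% of all genes, and DESeq2 called 4 (Jun, Egr1, Egr2 and Egr3) against 14% of all genes. At an unadjusted p under 0.05 there were 5 of 10 (Jun, Junb, Egr1, Egr2 and Egr3), against 21.4% of all genes. These 5 did not overlap between treatments, and neither did 44.4% of all genes in these groups of 2 and 3 libraries, so 5 of 10 is near the background. Jun had 1850 and 1834 CPM in MIA striatum LPS, against 3185, 2902 and 2598 CPM in MIA striatum saline (log2 -0.65 ± 0.23, edgeR adjusted p = 0.079). Egr1 had 1897 and 1952 CPM in MIA striatum LPS, against 3099, 2836 and 2927 CPM in MIA striatum saline (log2 -0.62 ± 0.23, edgeR adjusted p = 0.10). The library marked as excluded had 986.2 CPM of Jun and 1245 CPM of Egr1, below the other 2 LPS libraries for both. Over the 10 genes it was below both of them for 7, above both for Junb (2039 CPM), and below every MIA striatum saline library for 8. Its Fosb level of 19.54 CPM, against 364.4 and 366.5 CPM in the other 2, and its Jun level were below those of all 23 libraries used. With it added back, 3 genes were called in MIA striatum (Jun, Egr1 and Egr3).

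Of 50 other immediate early and primary response genes, 48 were tested. Averaged over the 4 groups, 15 of 48 were higher after LPS (31.2%, against 20.7% of all genes) and 6 lower, against 16.9% of all genes, with a median log2 fold change of 0.20. The difference from the 10 genes was not tested. Pim1, a survival kinase, rose (1.65 ± 0.11, edgeR adjusted p = 2.8e-10), as did the transcription factors Nfil3 (1.43 ± 0.16, adjusted p = 3.3e-07) and Myc (0.94 ± 0.13, adjusted p = 4.1e-06). Rgs2, a brake on G protein signalling, fell (-1.50 ± 0.10, edgeR adjusted p = 1.2e-10). These lists were chosen with earlier results of the data known, and the counts describe them without a test of the list.

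Among 15 MAP kinase phosphatases and feedback inhibitors, 2 rose and 3 fell after LPS on average (median log2 -0.18), a called share of 33.3% against 37.6% of all genes. Dusp16, a phosphatase of JNK and p38, rose (0.97 ± 0.10, edgeR adjusted p = 1.1e-07), whereas Dusp6, which acts on ERK, and Spry1, an inhibitor of receptor tyrosine kinase signalling, fell (-0.58 ± 0.14, adjusted p = 0.0023 and -0.89 ± 0.13, adjusted p = 1.3e-05). Of 27 upstream kinases and factors, 3 rose and 8 fell (median -0.12), a called share of 40.7%, near that of all genes. Map2k6 and Map2k3, kinases of p38, went in opposite directions, at -1.16 ± 0.15 (edgeR adjusted p = 2e-06) and 0.55 ± 0.10 (adjusted p = 0.00023). Of 21 tested bZIP partners of Fos and Jun, 6 rose and 6 fell (median 0.17; 57.1% called), and those that rose included Batf (0.65 ± 0.15, edgeR adjusted p = 0.0011) and Fosl2 (0.55 ± 0.14, adjusted p = 0.0028). Of the 3 tested EGR and NAB partners, Nab2, a corepressor of EGR proteins, fell (-0.52 ± 0.18, edgeR adjusted p = 0.025).

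Of 18 heat shock genes, 11 rose (61.1%, against 20.7% of all genes) and 1 fell after LPS (median log2 0.53), among them the chaperones Hspd1 (1.02 ± 0.08, edgeR adjusted p = 5.7e-09) and Hspa8 (1.01 ± 0.12, adjusted p = 6.5e-07). Of 10 glucocorticoid-responsive genes, 1 rose and 3 fell (median -0.21), with a called share near that of all genes. Cdkn1a, a cell cycle inhibitor, rose (1.34 ± 0.14, edgeR adjusted p = 1.6e-07), and Sgk1 (-1.18 ± 0.20, adjusted p = 9.5e-05), Tsc22d3 (-0.63 ± 0.19, adjusted p = 0.012) and Zfp36, an RNA-decay factor (-0.39 ± 0.13, adjusted p = 0.026), fell.

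Markers of some cell types also moved with LPS. For the averaged LPS comparison, 20.7% of all genes were higher and 16.9% lower. Of 17 microglial markers, 13 were lower and 2 higher after LPS, and their summed level was 51110 to 71590 CPM in LPS libraries, against 67060 to 86520 CPM in saline libraries. Of 14 neutrophil markers, 9 were higher and 1 lower, and their sum was 578.3 to 1098 CPM after LPS, against 299 to 1039 CPM after saline. Of 12 monocyte markers, 10 were higher and 0 lower by edgeR, and their sum was 386.1 to 837.6 CPM after LPS, against 104.8 to 404.3 CPM after saline. Of 10 border macrophage markers, 5 were higher and 2 lower, and of 8 tested lymphocyte markers, 3 were higher and 2 lower. Of 19 endothelial and pericyte markers, 1 was higher and 5 were lower (26.3%, against 16.9% of all genes), among those lower Itm2a (-2.25 ± 0.25, edgeR adjusted p = 3.1e-07) and Pltp (-1.78 ± 0.20, adjusted p = 4.1e-07). Called markers were 1 lower of 15 neuronal, 2 lower of 12 striatal projection neuron, 1 higher and 1 lower of 12 astrocyte and 2 lower of 13 oligodendrocyte markers. In that order the called shares were 6.67%, 16.7%, 16.7% and 15.4%, each below the 37.6% of all genes. None of these lists had a marker at 0 in every library. The part of a changed cell mix in the values of the 10 genes was not tested.

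The second question was whether prenatal MIA moved the genes. By edgeR, 0 of 10 genes were called for MIA minus control in cortex LPS, in cortex saline, in striatum LPS, in striatum saline, and averaged over these 4. The shares of all genes called were 0%, 0%, 0.146%, 0% and 0.35%. At an unadjusted p under 0.05 there were 3, 3, 1, 0 and 4 of the 10 genes in the same order, against 4.88%, 5.37%, 9.08%, 4.91% and 10.5% of all genes. DESeq2 called 0 in each group and 1, Fosb, on average, where it called 1.84% of all genes.

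Fosb, whose long-lived truncated product is a known mark of repeated stimulation in neurons, gave the largest averaged difference. Over both regions and treatments it had 87.8, 364.4 and 598.2 CPM as the lowest, median and highest of 11 MIA libraries, against 87.23, 129.65 and 421.4 CPM in 12 control libraries. The ranges overlapped. The averaged log2 difference was 1.04 ± 0.27 (unadjusted p = 0.001, edgeR adjusted p = 0.11). It was called with DESeq2 (1.03, adjusted p = 0.022), with no filter on low counts (edgeR adjusted p = 0.005), without MIA cortex LPS replicate 3 (adjusted p = 0.025), without control cortex LPS replicate 1 (adjusted p = 0.039) and with all libraries numbered 3 left out (1.15, adjusted p = 0.043). Fosb was not called under the other alternatives, among them the replicate numbers as a block and the excluded library added back. Among libraries numbered 3 the MIA and control levels were 87.8 and 94.6 CPM in cortex LPS. They were 175.3 and 131.3 CPM in cortex saline, and 226.8 and 225.8 CPM in striatum saline. The library marked as excluded, an MIA library, had less Fosb than any other.

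Egr1 and Egr2 had negative averaged differences that were not called. Egr1 averaged -0.32 ± 0.10 (unadjusted p = 0.0059, edgeR adjusted p = 0.25) and Egr2 -0.61 ± 0.23 (unadjusted p = 0.016, adjusted p = 0.34). In cortex LPS, Egr1 had 1650, 1630 and 1225 CPM in MIA, against 1916, 2451 and 3131 CPM in control libraries (log2 -0.73 ± 0.20, edgeR adjusted p = 0.40). Junb and Ier2 also did not overlap there, 3 of 10 genes against 7.85% of all genes, with 390.1 to 609.4 CPM of Ier2 in MIA cortex LPS, against 699.8 to 1032 CPM in control cortex LPS (log2 -0.69 ± 0.22, edgeR adjusted p = 0.68). In striatum LPS, 4 of 10 genes did not overlap, against 22.4% of all genes: Fos, Fosb and Atf3 were higher and Egr1 lower in MIA, and none was called. Fosb there had 364.4 and 366.5 CPM in MIA, against 128.0, 104.9 and 105.9 CPM in control libraries (log2 1.69 ± 0.58, edgeR adjusted p = 0.35). Fos averaged 0.29 ± 0.12 (edgeR adjusted p = 0.37), Atf3 0.33 ± 0.19 (adjusted p = 0.57) and Dusp1 0.17 ± 0.17 (adjusted p = 0.77). No list beside the 10 genes had a called member for averaged MIA minus control.

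**Figure D3:**
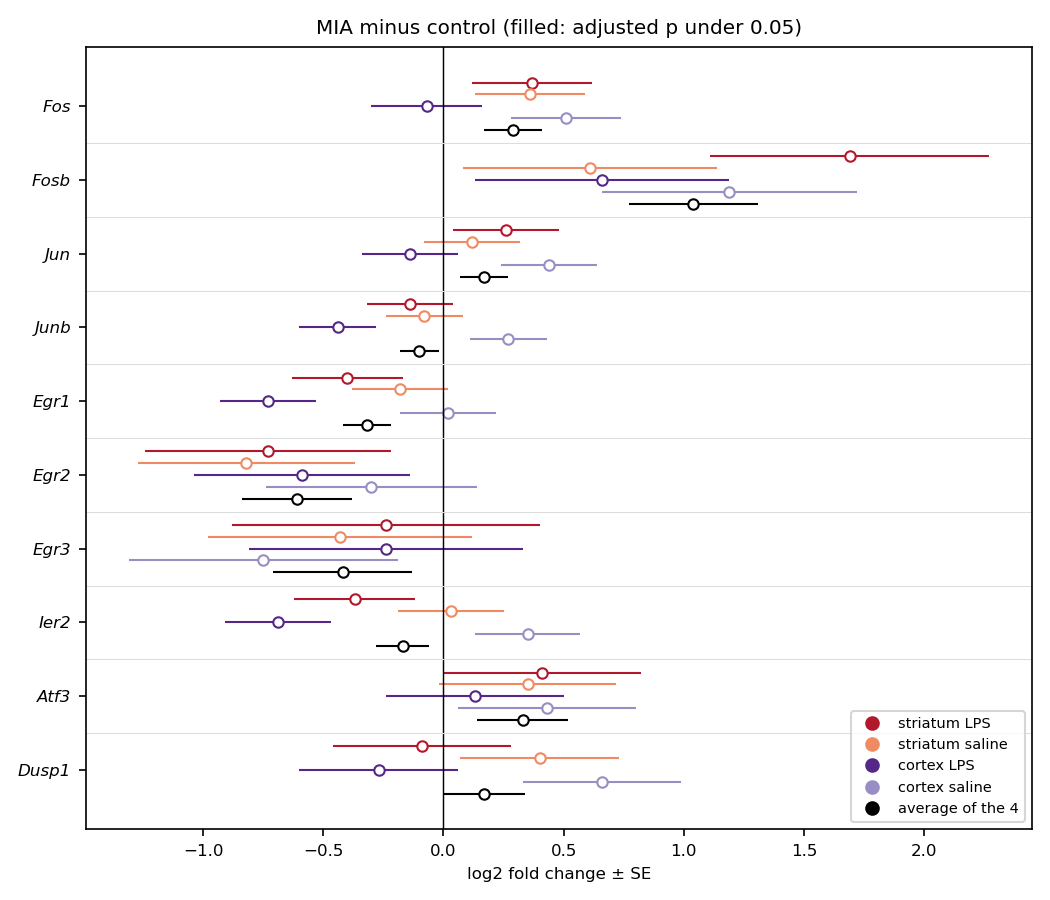
Log2 fold change ± SE of MIA minus control (x axis) for each gene (rows) in striatum LPS, striatum saline, cortex LPS, cortex saline and their average; no point had an adjusted p under 0.05, so all are open. Fosb lies above 0 in every group (0.61 to 1.69), and Egr2 and Egr3 lie below 0 in every group.

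The difference between the LPS responses of MIA and control offspring was tested as an interaction. In cortex and in striatum, 0 of 10 genes were called by edgeR and 0% of all genes in each. DESeq2 also called 0 of the 10, and 3 of the 10 in cortex and 0 in striatum had an unadjusted p under 0.05, against 4.34% and 7.72% of all genes. The cortex genes were Ier2 (log2 -1.04 ± 0.31), Junb (-0.70 ± 0.22) and Egr1 (-0.76 ± 0.29), with unadjusted edgeR p of 0.0035, 0.0051 and 0.016 in that order and an edgeR adjusted p of 1 each. So the calls of Fos, Junb and Egr1 after LPS in MIA cortex and not in control cortex are not shown to differ between the prenatal groups.

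The third question was the region. By edgeR, 0 of 10 genes were called for striatum minus cortex in MIA LPS (0.0117% of all genes called), MIA saline (0.0817%), control LPS (0.0175%), control saline (0.502%) and averaged over these (2.45%). In none of these comparisons did a gene of the 10 reach an unadjusted p under 0.05, and DESeq2 called 0 in each. With the replicate numbers as a block, edgeR still called none of the 10 in control LPS. The averaged log2 differences ran from -0.04 ± 0.23 for Egr2 to 0.39 ± 0.29 for Egr3, and those of Fos and Jun were 0.13 ± 0.12 and 0.14 ± 0.10. In MIA LPS, with 2 striatum libraries, 7 of the 10 genes did not overlap between the regions, each higher in striatum, against 18% of all genes in either direction, and none of them was called. Fosb had 364.4 and 366.5 CPM in MIA striatum LPS, against 278.7, 357.2 and 87.8 CPM in MIA cortex LPS. The library marked as excluded, also of MIA striatum LPS, is not in this count. Of the 7 genes, only its Junb level (2039 CPM) was above every MIA cortex LPS library. It had 2899 CPM of Fos and 986.2 CPM of Jun, against 2063 to 3579 and 1006 to 1559 CPM in MIA cortex LPS.

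The fourth comparison set the replicate numbers against each other within groups. Number 3 stood apart from number 1: Atf3, Fosb and Fos were lower and Egr2 was higher. For number 3 minus 1, 4 of 10 genes were called, against 6.67% of all genes, with 3 lower against 4.79% and 1 higher against 1.88%. For number 3 minus 2, 1 of 10 was called (Atf3), against 7.83% of all genes. For number 2 minus 1, 0 of 10 were called by edgeR, against 0% of all genes, with 2 of 10 at an unadjusted p under 0.05 (4.24% of all genes) and 0 called by DESeq2. The test for any difference between numbers called 3 of 10 (Fosb, Egr2 and Atf3), against 6.7% of all genes.

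Atf3 had 658.7, 808.8 and 1260 CPM as the lowest, median and highest of 7 libraries numbered 3, against 1104, 1503 and 2277 CPM in 8 libraries numbered 1. Within each of the 7 groups with 3 libraries used, number 3 was the lowest, and in 6 of them number 1 was the highest. The difference of number 3 minus 1 was -0.94 ± 0.11 on the log2 scale (edgeR adjusted p = 0.00023), and that of number 3 minus 2 was -0.74 ± 0.11 (adjusted p = 0.00084). It was called under all 29 alternatives for each. The size exceeded that of its averaged LPS difference (-0.31 ± 0.19). The library marked as excluded, also numbered 3, had 1189 CPM, against 1487 and 1468 CPM in the other 2 of its group.

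Fosb had 87.8, 131.3 and 226.8 CPM as the lowest, median and highest of the libraries numbered 3, against 128.0, 321.6 and 509.1 CPM in those numbered 1 (log2 -1.07 ± 0.26, edgeR adjusted p = 0.017). Fos had 2063, 3429 and 4044 CPM in number 3, against 3151, 4094 and 6177 CPM in number 1 (log2 -0.41 ± 0.12, edgeR adjusted p = 0.045), and this call was lost under 15 of 29 alternatives. Both genes were under their group mean in 7 of 7 libraries numbered 3. Number 3 was the lowest of its group in only 4 of 7 groups for Fos and 3 of 7 for Fosb. Number 1 was the highest in 6 of 7 for Fos and 5 of 7 for Fosb. Egr2 went the other way, with 81.42, 194.0 and 266.6 CPM in number 3, against 41.29, 64.81 and 280.6 CPM in number 1 (log2 0.91 ± 0.22, edgeR adjusted p = 0.018). It was above its group mean in 6 of 7 libraries numbered 3, and was the lowest of its group in number 1 in 5 of 7 groups. The Egr2 call was lost without MIA striatum saline replicate 3 (edgeR adjusted p = 0.052) and that of Fosb without MIA cortex saline replicate 3 (adjusted p = 0.057). Jun (-0.18 ± 0.12) and Egr1 (0.09 ± 0.13), which were called for LPS, were not called for number 3 minus 1 (edgeR adjusted p = 0.46 and 0.78). Junb (0.21 ± 0.08, edgeR adjusted p = 0.15) and Ier2 (0.26 ± 0.13, adjusted p = 0.25) were not called either. For both genes, however, number 3 was the highest of its group in 6 of 7 groups. DESeq2 called Junb higher for number 3 minus 1 (0.24, adjusted p = 0.028) and for number 3 minus 2 (0.28, adjusted p = 0.0088).

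**Figure D4:**
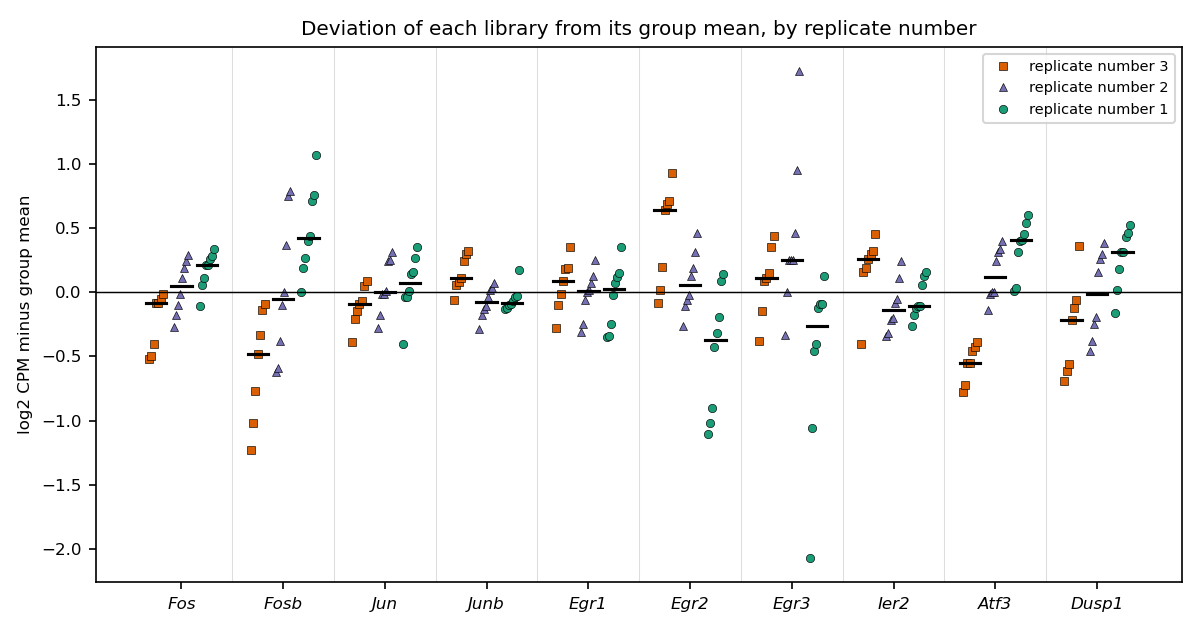
Log2 CPM of each library minus the mean of its group (y axis) for each gene (x axis), with libraries numbered 3, 2 and 1 side by side and a bar at the median. Atf3 is below its group mean in all 7 libraries numbered 3 (median -0.55) and above it in all 8 numbered 1, and Egr2 runs the other way.

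Other stress genes moved with the number. For number 3 minus 1, 4.79% of all genes were lower and 1.88% higher. Heat shock genes had 14 of 18 members lower and 0 higher by edgeR in number 3 than in number 1 (median log2 -0.60), among them the co-chaperones Dnaja1 (-0.76 ± 0.09, adjusted p = 0.00023) and Dnajb4 (-0.72 ± 0.11, adjusted p = 0.0016). Their summed level was 11930 to 18170 CPM in number 3, against 15750 to 33950 CPM in number 1. Of the 48 other immediate early and primary response genes, 10 were lower (20.8%, against 4.79% of all genes) and 4 higher, and the zinc-finger factors Klf2 (-2.50 ± 0.32, edgeR adjusted p = 0.0003) and Klf4 (-2.57 ± 0.33, adjusted p = 0.00031) fell most clearly by adjusted p. Of 21 bZIP partners, 5 were lower (23.8%) and 1 higher. Those lower included the stress factor Ddit3 (-0.91 ± 0.11, edgeR adjusted p = 0.00023) and Maff (-1.18 ± 0.18, adjusted p = 0.0014). Maff is also among the 48 genes above. Nab1, a corepressor of EGR proteins, was lower (-1.51 ± 0.23, edgeR adjusted p = 0.0014), as were 4 of 27 upstream factors with Mapkapk2, a kinase under p38 (-1.30 ± 0.23, adjusted p = 0.0028), and 2 of 15 MAP kinase feedback genes with Spry4 (-1.33 ± 0.30, adjusted p = 0.012). Of 10 glucocorticoid-responsive genes, 2 were higher (20%) and 1 lower (10%).

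Markers of cell types were compared by number as well. Of 17 microglial, 14 neutrophil, 12 monocyte and 15 neuronal markers, 1, 0, 1 and 0 were called for number 3 minus 1 by edgeR. Of the other marker lists only that of lymphocytes had a call (1 of 8). The share of all genes called was 6.67%, and in lists this short 0 or 1 call is near that share. The summed microglial level was 51110 to 86520 CPM in number 3, against 54320 to 81340 CPM in number 1. The median log2 difference of number 3 minus 1 was 0.47 for the neuronal and -0.37 for the astrocyte markers, with no marker called. The summed neuronal level was 47.94 to 1021 CPM in number 3, against 55.17 to 200.7 CPM in number 1, and the summed astrocyte level was 347.3 to 957.8 CPM in number 3, against 386.3 to 1035 CPM in number 1. What the numbers stand for is not given, and the part of other cells, handling or sequencing in their difference was not tested.

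**Figure D5:**
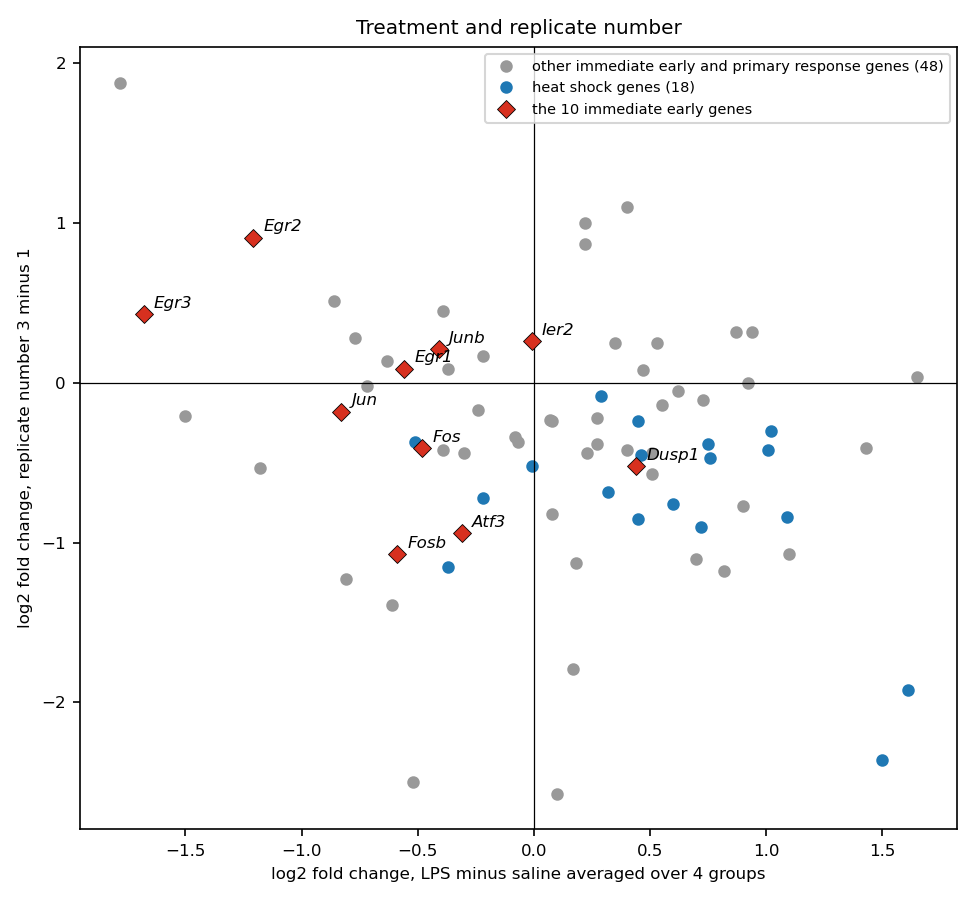
Log2 fold change of LPS minus saline averaged over 4 groups (x axis) and of replicate number 3 minus 1 (y axis) for the 10 genes (red diamonds), 18 heat shock genes (blue) and 48 other immediate early and primary response genes (grey). Egr2 and Egr3 lie low for LPS and above 0 for number, whereas heat shock genes lie below 0 for number and mostly above 0 for LPS.

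The 10 genes did not vary as 1 block. Across the 23 libraries, the 45 pairs of genes had correlations of log2 CPM from -0.63 to 0.87 with a median of 0.35, and after each group mean was subtracted they ran from -0.54 to 0.91 with a median of 0.19. Within groups, Fos went with Fosb (r = 0.91), Dusp1 (r = 0.88) and Atf3 (r = 0.82), while Egr2 and Atf3 ran against each other (r = -0.54). These correlations are descriptions over libraries that share treatment, depth and replicate number.

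Outside the 10, the genes whose log2 CPM most resembled the mean of the 10 standardised genes over the 23 libraries were Tagap (r = 0.843), Rhoh (0.835), Traf5 (0.822), Cln8 (0.813), Plpp1 (0.813) and Nit1 (0.811). With group means subtracted they were Mat2b (0.875), Tmem198b (0.859), Dusp6 (0.806), Mbip (0.805), Clp1 (0.799) and Nuak2 (0.797). Dusp6, the ERK phosphatase, also belongs to the feedback list above.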

How the data were processed

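RNA-seq libraries of CD11b-positive brain cells were deposited as a table of RSEM expected counts, 1 value per gene and library. Per the submitters' processing notes, the authors used STAR, RSEM and DESeq2; versions and genome build are not given in the sources used here. Of the deposited values, 6.922% were not whole, and expected counts were rounded before testing. RSEM divides reads shared between similar genes. Of 55487 identifiers, 55141 matched a symbol without the version suffix. Exon lengths came from GENCODE M21.

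Groups came from the labels. MIA striatum LPS replicate 3, marked as excluded, was left out, leaving 23 libraries. In R 4.3.3, edgeR 4.0.16 kept 17139 genes (filterByExpr, minimum count 10, minimum total 15), scaled libraries with TMM (factors 0.936 to 1.117) and fitted 1 quasi-likelihood model to all 8 groups (15 residual degrees of freedom). Replicate numbers were tested by adding them to that model (13 degrees of freedom). The calls of every comparison between groups come from the model without the numbers. The replicate block, an alternative, added number terms shared by all 8 groups, so no comparison was fitted as pairs of libraries. Among comparisons with 3 same-numbered pairs, every pair deviated together (correlation over 0.1) in only 2. These were MIA cortex LPS and saline (0.12 to 0.31) and control striatum and cortex LPS (0.28 to 0.31). There were 17 comparisons between groups and 4 of numbers. p-values are two-sided and were adjusted within each comparison by the Benjamini-Hochberg method. Each SE was derived from the F statistic. Log2 CPM used a prior count of 2. The scripts were tested on simulated data.

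The 10 genes and 17 other lists were chosen with earlier results of these data known. Some genes stand in more than 1 list, among them Maff, Fosl2, Sgk1 and Zfp36. Named list genes were up to 4 with the smallest adjusted p for averaged LPS and up to 2 in other comparisons with at least 3 called members; the likeness measure took 6 genes of at least 10 mean CPM. Alternatives were DESeq2 1.42.0, its size factors, library totals, other filters, the replicate block, the excluded library added back, single libraries left out and all libraries numbered 3 left out. Promoters were read from RefSeq windows; of Egr2, the window at the GENCODE principal start was used.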

Additional observations from a re-analysis of the deposited data

How the results depend on the processing

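No value of the 10 genes reversed a called direction. Of 1540 values under other scalings, filters, tools and sample sets, 1490 stayed on the same side of the threshold, 11 lost a call and 39 gained one; of 4600 values with 1 library left out, 4539 stayed, 45 lost and 16 gained. Sign changes between values that were called under neither setting were not counted as reversals. The averaged LPS calls of Fos, Jun, Junb, Egr1, Egr2 and Egr3 held under all 31 alternatives. The counts of calls below describe changes with the setting and are not set against shares, since the share of all genes called also moved. For LPS in MIA striatum that share was 10.2% by edgeR and 14% by DESeq2.

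For LPS in control cortex, 2 genes were called; there was 1 with the excluded library added back, 1 with the libraries numbered 3 left out (chosen after seeing the data) and 4 with the replicate block (Jun, Egr2, Egr3 and Dusp1), and 0 to 2 with 1 library left out. For LPS in control striatum the 3 calls became 1 to 3 with 1 library left out. In MIA striatum the 0 calls became 1 with DESeq2 size factors in edgeR, 2 with no filter on low counts, 2 with at least 50 counts in 3 libraries, 4 with DESeq2, 3 with the excluded library added back, 2 with the replicate block and 0 to 2 with 1 library left out. For averaged MIA minus control the 0 calls became 1 (Fosb) with no filter, 1 with DESeq2, 1 with the libraries numbered 3 left out and 0 to 1 with 1 library left out.

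For any difference between replicate numbers the 3 calls became 5 with DESeq2, 1 with the excluded library added back and 1 to 4 with 1 library left out. For number 3 minus 1 the 4 calls became 2 to 5 with 1 library left out; they were 2 without MIA cortex saline replicate 3 and 2 without MIA striatum saline replicate 3. For number 3 minus 2 the 1 call became 2 with DESeq2 size factors, 2 with library totals only, 2 with at least 50 counts, 2 with DESeq2 and 1 to 2 with 1 library left out. The cause of these moves was not tested.

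Same-numbered libraries of different groups deviated together with r over 0.1 in 20 of 33 pairs (-0.2 to 0.31), and the numbers were left out of the main model. With the replicate block, Fosb (-0.65, edgeR adjusted p = 0.015) and Atf3 (-0.36, edgeR adjusted p = 0.0029) were also called for averaged LPS. Egr3, at a mean of 2.88 CPM per kb, had the largest SE for averaged LPS (0.30), with Fosb (0.27) and Egr2 (0.23) next; the part of depth was not tested.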
